A study of Gallus gallus with 18 samples.

Results

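The genes described here encode the subunits of the mitochondrial oxidative phosphorylation (OXPHOS) complexes and proteins that help to build them. A probeset, the group of probes on the array that reads 1 transcript, was taken as a member when its annotated symbol begins with NDUFA, NDUFB, NDUFC, NDUFS, NDUFV, UQCR, ATP5 or COX followed by a number, or with SDHA to SDHD, which takes in the SDHAF assembly factors. The rule found 155 of 38535 probesets, which read 87 genes. Of these, 8 probesets (5 genes) are on the Z chromosome and 145 (81 genes) on autosomes in the GRCg7b annotation, and 2 probesets are unplaced (NDUFB7, and 1 that reads both COX7A2 and TMEM30A).

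Total RNA of 18 individual White Leghorn chicken embryos, 9 male and 9 female, was extracted, amplified and labelled. The product was hybridized to Affymetrix chicken arrays, with 1 array for each embryo. Both groups were HH stage 4 embryos of 1 day kept for 3 h in culture, and from each a square of primitive streak tissue, 400 micron a side, was cut between 70% and 90% of the streak's length. The sexes were assigned by the study from the W-linked gene HINTW, and some embryos of unlabelled identity had been electroporated with plasmids. The square holds all germ layers, so that in this bulk RNA fewer cells of a type cannot be told apart from less RNA per cell.

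Oxidative phosphorylation takes place at the inner mitochondrial membrane. Complex I (NADH dehydrogenase) and complex II (succinate dehydrogenase) feed electrons into the membrane, complex III passes them to cytochrome c, and complex IV (cytochrome c oxidase) hands them to oxygen. The proton gradient so formed drives complex V, the ATP synthase. Most subunits are encoded in the nucleus and are built with fixed partners into 1 complex. Male birds are ZZ and female birds ZW, so a Z-linked subunit gene is present in more copies in males than in females while its autosomal partners are not.

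The values are MAS5 signals, intensities on a linear scale that the authors' processing brought to a common level on each array, and they have no further unit. A probeset was tested when its signal reached 136.2 in at least 9 of 18 embryos, a level that keeps 37% of all probesets. A total of 108 member probesets (83 genes) passed, and 47 did not, 28 of which reached the level in no embryo; the genes ATP5G2, ATP5J, COX14 and COX7B had no tested probeset. Among the 108 tested, 98 reached the level in all 18 embryos, including each of the 5 Z-linked ones. M:F is the male over female ratio, log2 differences are male minus female of log2 signals, and the call is an adjusted p under 0.05 from limma over all 14204 tested probesets.

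Each embryo had between 13470 and 14857 probesets over the level. One HINTW probeset read between 5.08 and 75.1 in males and between 25606 and 32838 in females, a split that the assignment of sex fixed. The other read between 11.9 and 162.7 in males and between 153.1 and 430 in females, with a slight overlap. The streak and mesoderm list passed the filter for 9 of 10 genes, TBXT among them but not MIXL1. Its signal summed over all 14 probesets, 11 of them tested, was 60044 to 99460 in males and 43800 to 88339 in females. TBX6 passed only near the level, with medians of 141.1 in males and 144.6 in females. The endoderm list passed for 5 of 7 genes. Its signal summed over all 11 probesets, 8 of them tested, was 20972 to 37042 in males and 11621 to 36266 in females. GATA6 of this list had medians of 144.1 in males, near the level, and 106.2 in females, below it. The blood list passed for 3 of the 6 genes with a probeset, TAL1, LMO2 and the globin HBE. Its signal summed over all 14 probesets, of which only 3 were tested, was 628 to 1020 in males and 604 to 1327 in females. TAL1 had medians of 138.6 in males, near the level, and 119.5 in females, below it. LMO2 had medians of 114.9 in males, below the level, and 288.7 in females. HBE had medians of 235.8 in males and 281.8 in females, and the globins HBA1, HBAD and HBZ were below the filter. No probeset of these lists, nor of the node, epiblast and muscle lists, was called between the sexes. Their part in the values below was not tested.

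Across the set, 4 of 108 tested probesets were called male-higher and 0 female-higher. The male-higher share among all tested probesets was 2.51% and the female-higher share 0.268%. The 4 calls were NDUFS4 of complex I, COX7C of complex IV, and ATP5I and ATP5F1AZ of complex V, and all of them are Z-linked. Among the 5 tested Z-linked members 4 were thus called, against 57.5% of the 494 tested Z-linked probesets of any function. Among the 102 tested autosomal members 0 were called in either direction, against 0.0647% male-higher and 0.111% female-higher among 10812 autosomal probesets. A SAM-type test, the kind named in the study's methods, called 0 of the 102 as well. By that test 2.85% of all tested probesets were male-higher and 0.169% female-higher. Those shares take in the Z-linked probesets, and the SAM-type share was not counted for autosomal probesets alone. At an unadjusted p under 0.05 there were 4 of the 102, all lower in males, and 5.24% of autosomal probesets passed that limit, 3.27% with the lower mean in males. The males were all above the females in 0 of the 102 (0.00925% of autosomal probesets) and all below them in 0 (0% of autosomal probesets).

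**Figure D1:**
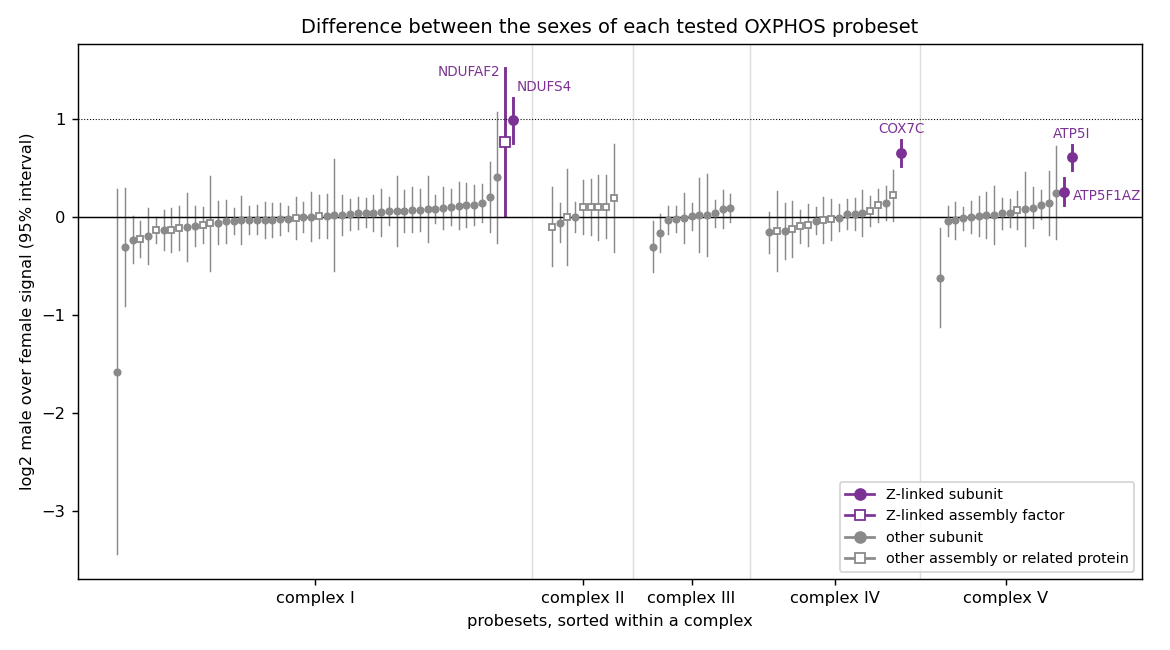
Log2 male over female signal of each of the 108 tested OXPHOS probesets with its 95% interval from limma, sorted within complexes I to V; the dotted line marks a log2 difference of 1. Z-linked members (purple) lie between 0.26 and 0.99, and 92 of the 102 autosomal ones lie within 0.2 of 0.

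The median log2 difference was 0.66 over the 5 Z-linked members (M:F 1.57) and 0.01 over the 102 autosomal members (M:F 1.01). The same medians over all tested probesets were 0.59 on Z (M:F 1.51) and -0.02 on autosomes. A difference under 0.2 in either direction was found for 92 of 102 autosomal members. The 95% interval lay within 1.5-fold for 95 and within 2-fold for 99 of them. Over all tested autosomal probesets the lowest and highest deciles of the difference were -0.21 and 0.19, so most of these lay near 0 too. Their share within the same bounds was not counted.

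In complex I the Z-linked subunit is NDUFS4, an accessory subunit needed for a stable complex in mammals. Its signal ranged from 1269 to 2167 in males (median 1823) and from 742 to 1160 in females (median 875.8). Every male was above every female, which was so for 1.19% of all tested probesets and 29.4% of Z-linked ones. The log2 difference was 0.99 (SE 0.11, 95% interval 0.76 to 1.22), an M:F ratio of 1.98 (limma adjusted p = 5.96e-06, exact permutation p = 4.11e-05, two-sided, the lowest value this design allows). This was larger than 93.9% of the tested Z-linked differences. A second NDUFS4 probeset was below the filter in all 18 embryos and gives no ratio.

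The other Z-linked gene of complex I is NDUFAF2, which encodes an assembly factor that, in human cells, leaves before the complex is complete. It ranged from 304.2 to 1342 in males (median 937.8) and from 170.2 to 1095 in females (median 525). The sexes overlapped widely, and the log2 SD within the sexes, averaged over both, was higher for only 1 other of the 108 tested members, with log2 SDs of 0.81 among males and 0.83 among females. The log2 difference of 0.76 (SE 0.36, interval 0.01 to 1.52) did not pass the limma test (adjusted p = 0.564) or the exact permutation test (p = 0.0668, two-sided). The interval runs from close to 0 to beyond the value of NDUFS4. A second NDUFAF2 probeset was below the filter in every embryo and gives no ratio.

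COX7C is the Z-linked subunit of complex IV, a small nuclear-encoded protein around the catalytic core. Its signal lay between 14454 and 15853 in males (median 14976) and between 8376 and 10469 in females (median 9453). Every male was above every female, as for 29.4% of tested Z-linked probesets. The spread among males was narrow, with log2 SDs of 0.05 among males and 0.13 among females. The log2 difference was 0.66 (SE 0.06, interval 0.52 to 0.79), an M:F ratio of 1.57 (limma adjusted p = 1.35e-06, exact permutation p = 4.11e-05, two-sided). Its second probeset stayed below the filter.

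Complex V has a pair of Z-linked genes. ATP5I, now also named ATP5ME, encodes subunit e of the membrane part, which takes part in the pairing of ATP synthases. It ranged from 17554 to 20838 in males (median 18641) and from 10965 to 13215 in females (median 12649). No female reached the lowest male, as for 29.4% of tested Z-linked probesets. The log2 difference was 0.61 (SE 0.06, interval 0.49 to 0.74), an M:F ratio of 1.53 (limma adjusted p = 1.67e-06, exact permutation p = 4.11e-05, two-sided).

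ATP5F1AZ encodes the alpha subunit, which alternates with beta in the catalytic head of the ATP synthase. Its signal ranged from 22968 to 29926 in males (median 25809) and from 19699 to 23927 in females (median 21050). The highest female exceeded the lowest male, so the sexes overlapped. The log2 difference was 0.26 (SE 0.07, interval 0.12 to 0.40), an M:F ratio of 1.20 (limma adjusted p = 0.0316, exact permutation p = 8.23e-05, two-sided). Only 15.6% of tested Z-linked probesets had a lower difference. The limma call depended on single embryos: it was lost in 11 of the 18 fits that left out 1 embryo, with adjusted p-values between 0.023 and 0.0697 over the 18. These were the fits without male 1, 2, 3, 5, 6 or 7 or without female 1, 2, 6, 7 or 9. The GRCg7b annotation also holds a W-linked copy, ATP5F1AW, which no probeset is annotated to, and whether this probeset reads it as well was not tested.

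**Figure D2:**
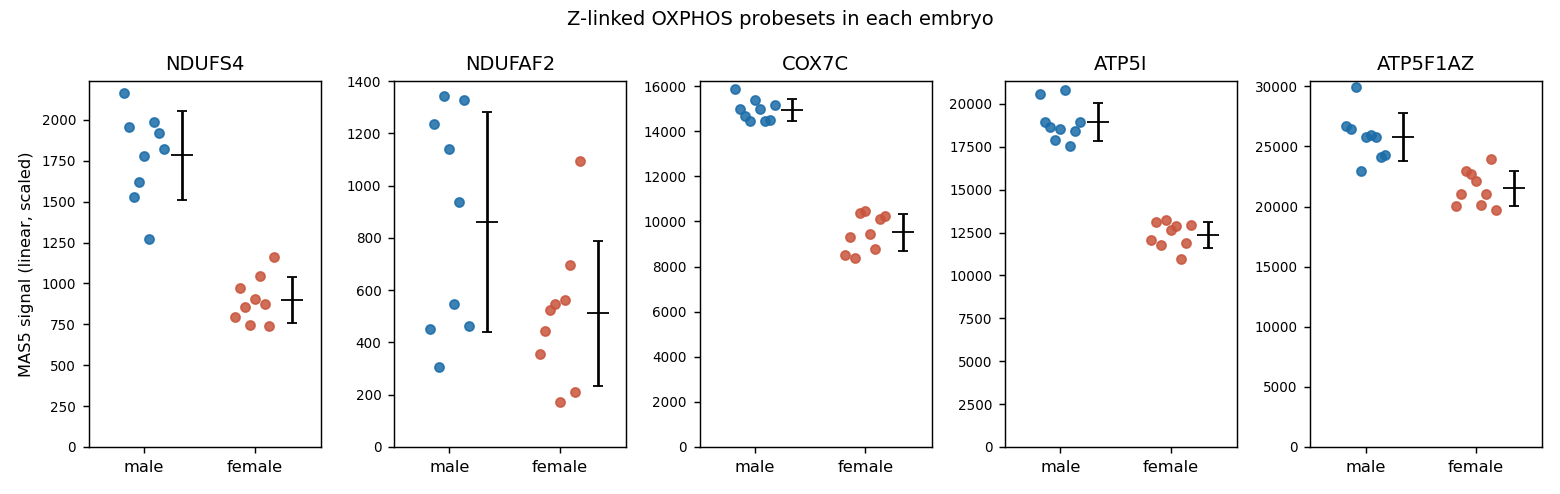
MAS5 signal (linear, each axis from 0) of the 5 tested Z-linked OXPHOS probesets in 9 male and 9 female embryos; each point is an embryo and the bar is the mean with its SD. Males and females are separate for NDUFS4, COX7C and ATP5I and overlap for NDUFAF2 and ATP5F1AZ.

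In order of size the differences were those of NDUFS4, NDUFAF2, COX7C, ATP5I and ATP5F1AZ. The intervals of COX7C and ATP5I overlapped over most of their length, and that of NDUFS4 met the interval of COX7C only at its lower end. The interval of ATP5F1AZ ended at 0.40, below the start of those of NDUFS4, COX7C and ATP5I. The differences between these members were not tested against each other.

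The Z-linked members were then set against the autosomal subunits of the same complex in each embryo, with every probeset first taken as its deviation from its own mean over the 18 embryos. For NDUFS4 against 41 autosomal probesets of complex I, males lay between 0.02 and 0.80 (median 0.53) and females between -0.81 and -0.26 (median -0.46). Relative to its complex NDUFS4 was thus higher in every male than in every female, by 1.01 on the log2 scale or 2.01-fold. Taken against the same autosomal subunits, 26.1% of all tested Z-linked probesets were higher in every male than in every female. For NDUFAF2 against the same 41 probesets the sexes overlapped, with -0.69 to 1.37 in males and -1.75 to 0.77 in females.

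For COX7C against 8 autosomal probesets of complex IV, males lay between 0.24 and 0.46 and females between -0.52 and -0.18. For ATP5I against 15 autosomal probesets of complex V, males lay between 0.17 and 0.46 and females between -0.46 and -0.14. For both genes every male was above every female, with differences in means of 0.66 (1.58-fold) and 0.60 (1.52-fold). The same held for 30% of tested Z-linked probesets against the subunits of complex IV and for 25.1% against those of complex V. For ATP5F1AZ against the same 15 probesets, males lay between -0.02 and 0.32 and females between -0.21 and -0.04, a difference of 0.25 or 1.19-fold. Here no female reached the lowest male, as for that 25.1% of Z-linked probesets, although the signals themselves overlapped. Complexes II and III have no Z-linked member, so no such comparison exists for them.

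**Figure D3:**
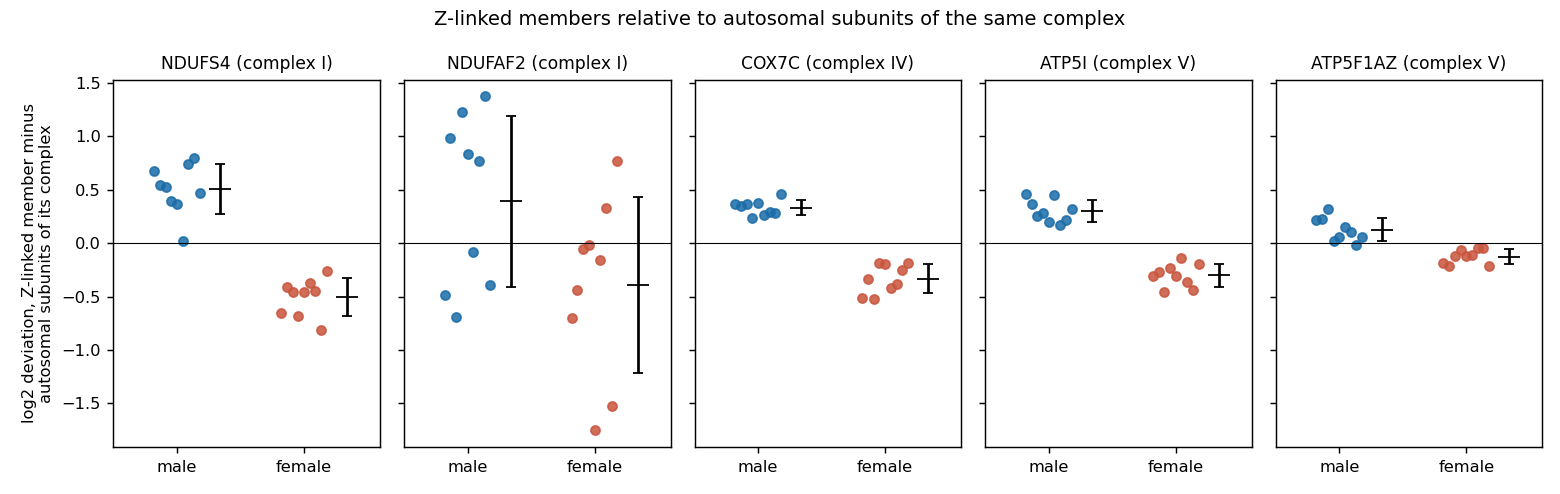
Log2 deviation of each Z-linked member minus the mean log2 deviation of the autosomal subunits of its complex, in 9 male and 9 female embryos; points are embryos and bars the mean with its SD. The sexes do not overlap for NDUFS4, COX7C, ATP5I and ATP5F1AZ and overlap for NDUFAF2.

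Autosomal subunits of complex I gave 41 tested probesets (31 genes) with a median log2 difference of 0.02, 24 above 0 and 17 below. NDUFV1 encodes the subunit that binds NADH and FMN. It ranged from 3953 to 6095 in males (median 4603) and from 3533 to 5600 in females (median 4659), with a log2 difference of 0.08 (SE 0.11, limma adjusted p = 0.922). NDUFB1, an accessory subunit of the membrane arm and the autosomal subunit of complex I with the smallest error, had a median of 6901 in males and 6898 in females. The sexes overlapped for both genes, and the interval of NDUFB1 ran from -0.14 to 0.11.

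The largest autosomal difference of the set belonged to 1 of 3 probesets of NDUFS1, which encodes the large iron-sulphur subunit of complex I. This first probeset fell into separate bands: 5 embryos (4 male and 1 female) lay between 495.4 and 806.4, and 13 (5 male and 8 female) lay between 9726 and 18414. The bands were drawn after the values were seen. The log2 difference was -1.58 (SE 0.89, interval -3.44 to 0.29, limma adjusted p = 0.702), and 99.9% of all tested probesets varied less within the sexes.

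The remaining probesets of NDUFS1 did not fall into such bands. The second lay between 2930 and 4781 in males and between 3855 and 5501 in females. Its lowest embryos, males 3, 7 and 8 at 2930, 3059 and 3054, were also in the low band, but male 6, at 4562, and female 4, at 4095, were in the low band too. The third lay between 422 and 1415 in males and between 477.9 and 1496 in females. Their log2 differences were -0.23 (adjusted p = 0.61) and 0.02 (adjusted p = 0.995) by limma.

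**Figure D4:**
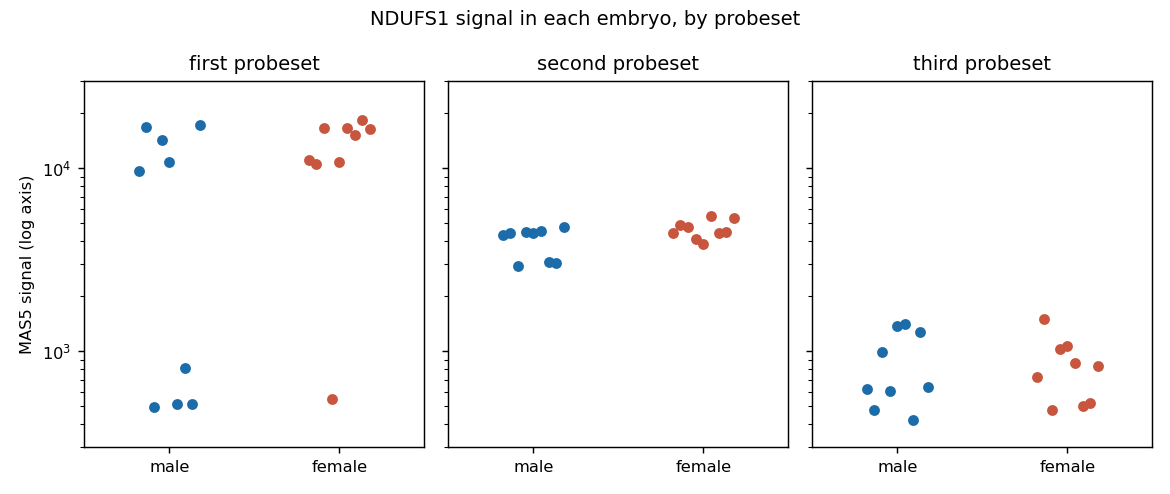
MAS5 signal (log axis) of the 3 NDUFS1 probesets in 9 male and 9 female embryos, each point an embryo. Only the first probeset splits, with 5 embryos between 495.4 and 806.4 and 13 between 9726 and 18414.

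The assembly factors of complex I, the NDUFAF genes, gave 8 tested autosomal probesets (7 genes), of which 7 had a lower mean log2 signal in males. Their median difference was -0.09. That of all tested autosomal probesets was also below 0, at -0.02, so more of those were lower in males than higher. The share of those lower in males was not counted. NDUFAF4 accounts for 2 of the 8 probesets, and the shared direction was not tested. NDUFAF5 had a median of 570.5 in males and 670.2 in females, and NDUFAF1 had 5027 in males and 5455 in females. Their log2 differences of -0.22 and -0.14 had unadjusted p-values of 0.0227 and 0.0454 and did not pass the limma test (adjusted p = 0.392 and 0.556).

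Complex II gave 9 tested probesets, all autosomal, with a median log2 difference of 0.10 over subunits and assembly factors together. The 2 that read subunits had a median of -0.03, and the 7 that read assembly factors one of 0.10. The subunits were SDHA and SDHD, and no member carried the symbol SDHB or SDHC. SDHA, the flavoprotein that oxidizes succinate, ranged from 7034 to 9627 in males (median 7475) and from 6891 to 8329 in females (median 7913). The sexes overlapped with a log2 difference of 0.00 (SE 0.07, interval -0.15 to 0.16, limma adjusted p = 0.999). The largest difference of this complex was that of a probeset of SDHAF4, an assembly factor, at 0.20 (SE 0.26, limma adjusted p = 0.916). On the other tested SDHAF4 probeset the difference was 0.10 (SE 0.14).

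Complex III gave 11 tested autosomal probesets (8 genes) with a median log2 difference of 0.01. The core protein genes had medians in males and females of 18215 and 18417 (UQCRC1) and of 7083 and 7265 (UQCRC2), and the Rieske iron-sulphur protein gene UQCRFS1 had 1830 in males and 1791 in females. All of these overlapped, with log2 differences between -0.02 and 0.01, and a second tested UQCRC2 probeset had a difference of 0.03. UQCRB, a small subunit near the ubiquinone site, had the largest difference at -0.30 (SE 0.13, unadjusted p = 0.0269, limma adjusted p = 0.426) on 1 probeset, which lay between 415 and 779.1 in males and between 515.9 and 809.8 in females. On its other tested probeset the difference was 0.02.

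In complex IV the autosomal members, assembly factors included, gave 17 tested probesets (15 genes). Their median log2 difference was -0.02, with a range of -0.15 to 0.22, and the 8 that read subunits had a median of 0.01. COX4I1, the largest nuclear-encoded subunit, ranged from 23606 to 31329 in males (median 26666) and from 22903 to 29505 in females (median 25941). COX6C, the subunit with the smallest error, had on that probeset a median of 12423 in males and 12475 in females. Its log2 difference was -0.01 there and -0.14 on its other tested probeset. The COX5A probesets had log2 differences of 0.04 and -0.15. All overlapped and none passed the test. The largest difference was 0.22 (SE 0.12, adjusted p = 0.69), for COX15, an enzyme of haem a synthesis.

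Among the complex IV subunits looked at because mammals have tissue-restricted isoforms of them, COX4I1, COX6A1, COX8A and NDUFA4 had a probeset over the level in all 9 males and all 9 females, and so had COX7A2L, a COX7A-related protein of respiratory supercomplexes. The probeset that reads both COX7A2 and TMEM30A was over it in 0 males and 0 females. No member carried the symbol of the muscle isoforms COX6A2 or COX7A1. Of the striated muscle list only ACTN2 and TNNC1 passed the filter.

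In complex V the autosomal members gave 16 tested probesets (10 genes) with a median log2 difference of 0.03. The 15 that read subunits had a median of 0.02. ATP5B, the beta subunit with the catalytic sites, ranged from 15634 to 19081 in males (median 17697) and from 13829 to 18034 in females (median 15588). The sexes overlapped, with a log2 difference of 0.12 (SE 0.07, limma adjusted p = 0.705). ATP5O, the stalk subunit known as OSCP, had the smallest error among the autosomal subunits. On that probeset the log2 difference was -0.01, with an interval of -0.13 to 0.10. Over its 4 tested probesets the differences ran from -0.01 to 0.14.

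ATP5C1, the gamma subunit of the rotating stalk, had 2 tested probesets with unlike differences. One lay between 102.4 and 479.4 in males (median 361.4) and between 319.4 and 628.2 in females (median 406.1). Its log2 difference of -0.62 (SE 0.24, unadjusted p = 0.02, limma adjusted p = 0.362) was the largest autosomal one of complex V. The other had medians of 15550 in males and 15419 in females and a log2 difference of -0.04. Over the whole set 20 genes had several tested probesets, and in 15 of them these were within 0.2 of each other.

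Mean deviations of the autosomal subunits overlapped between the sexes in every complex. The mean over males minus that over females was -0.02 for complex I, -0.03 for complex II, -0.02 for complex III, -0.01 for complex IV and 0.01 for complex V. For complex I males lay between -0.24 and 0.14 and females between -0.09 and 0.15, and for complex IV males lay between -0.11 and 0.07 and females between -0.06 and 0.08. Male 3 was the lowest embryo for complexes I and III, and different embryos were highest in each complex. The 41 probesets of complex I include the NDUFS1 probeset that fell into bands. With the median over probesets in place of the mean, the median embryo stood at 0.0287 in males and 0.0155 in females for complex I. The same values were 0.0266 and 0.0291 for complex II, and 0.0077 and -0.0124 for complex III. They were -0.0378 and 0.0161 for complex IV, and 0.0683 and -0.0176 for complex V. In complexes I and III the order of the sexes thus differed between mean and median.

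**Figure D5:**
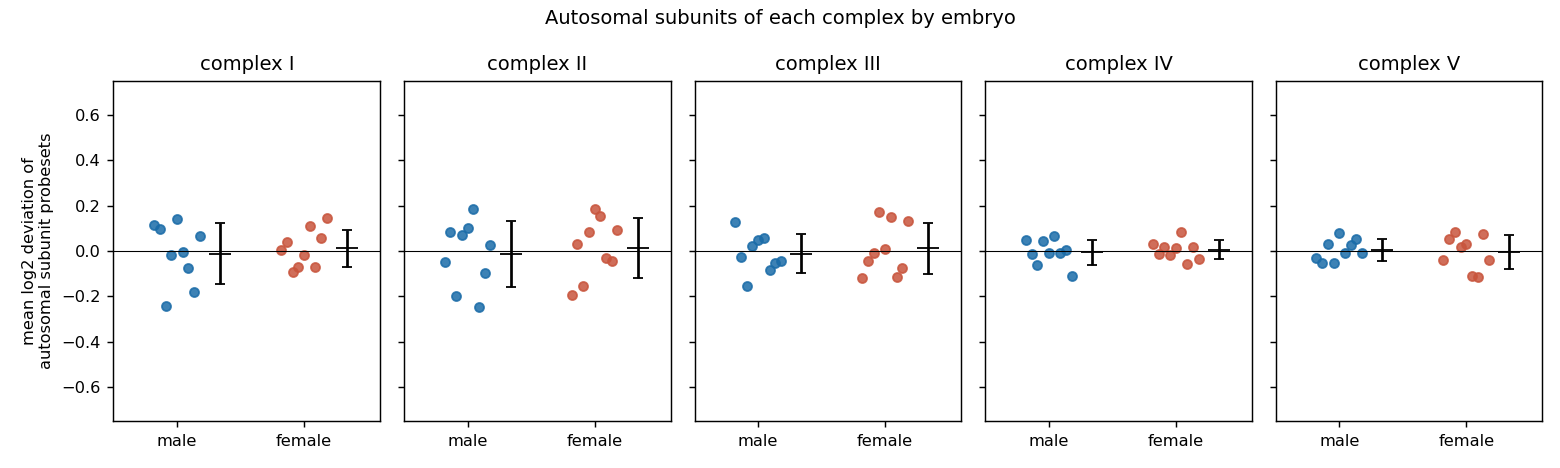
Mean log2 deviation of the autosomal subunit probesets of each complex (41, 2, 11, 8 and 15 probesets for I to V) in 9 male and 9 female embryos; points are embryos and bars the mean with its SD. The sexes overlap in every complex.

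Members varied little from embryo to embryo. The SD of log2 signal within a sex was below the median of all tested probesets for 85 of 108 members, with a median of 0.20 for members and 0.29 for all. The members were not matched with other probesets for signal in this count.

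Other genes of mitochondrial respiration were described from fixed lists. Of 38 tested probesets of assembly factors outside the rule, 1 was called: LYRM7, a Z-linked gene whose product helps to insert the Rieske protein into complex III. It ranged from 468.1 to 802 in males (median 583.8) and from 213.7 to 426.3 in females (median 325.9). Every male was above every female, and the log2 difference was 0.94 (SE 0.12, limma adjusted p = 4.74e-05). It was the only Z-linked probeset tested among these lists, and 57.5% of all tested Z-linked probesets were called male-higher and 29.4% had every male above every female.

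The calls numbered 0 of 7 tested probesets for electron carriers and entry points, which include CYCS (cytochrome c), and 0 of 26 for the TCA cycle and pyruvate dehydrogenase. They numbered 0 of 17 for mitochondrial DNA maintenance and biogenesis, and 0 of 8 for the membrane carriers and porins. All of these probesets are autosomal, where 0.0647% of tested probesets were called male-higher and 0.111% female-higher. Their median log2 differences were 0.11, 0.06, -0.05 and 0.02. Of the 10 listed subunits encoded in mitochondrial DNA, 0 had a probeset under these symbols. No member carried the symbol COX1, COX2 or COX3, which are encoded there too and fall under the rule.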

How the data were processed

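The authors deposited MAS5 signals, intensity values on a linear scale, for 38535 probesets in 18 embryos. MAS5 corrects background, summarizes the probe pairs of each probeset and scales each array, here to a trimmed mean of 500. The log2 of each signal was used as it stood, and 0 columns were left unused. Control probesets (96) were left out. Present calls were not used here, so a probeset was kept when its 9th-highest signal reached 136.2, the level that retains 37% of probesets, the share the methods state. The same level was used for Z-linked and autosomal probesets.

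Gene symbols are those of the platform annotation, and chromosomes were looked up by gene ID in RefSeq (GRCg7b). Of 14204 tested probesets 11416 read 1 gene, 65 several and 2723 none. Different probesets of a gene were kept apart. Levels were not compared between probesets.

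The fit (limma 3.58.1, run under R 4.3.3) had sex as its only term, and two-sided p-values were adjusted by the method of Benjamini and Hochberg across every probeset tested. Exact permutation tests used all 48620 splits of the embryos. The limma and SAM-type tests were checked on simulated data. Named were all Z-linked members, calls, subunits that carry the catalytic or defining function, and in each complex the autosomal member with the largest difference and the subunit with the smallest error; NDUFAF1 and NDUFAF5 were named after their values were seen. The members and lists were chosen with earlier results of these data known.

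Alternatives were a SAM-type test, log2 of signal plus 16, no filter, a filter at 272.4, all of the study's Z-linked list kept, quantile normalization, centring on the autosomal median, the brightest probeset of a gene alone, weights for arrays, the replicate number as a block, and fits without 4 embryos or without each embryo in turn. Each array is a separate embryo, and the number of arrays limits precision. Replicate numbers are counters and were not used as pairs, except in the alternative that took them as a block.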

Additional observations from a re-analysis of the deposited data

Results flagged for a closer look

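One value among the named probesets stood far from the rest of its sex. In the first NDUFS1 probeset, the one that fell into bands, female 4 had a signal of 548, and the nearest female had 10601, a gap of 0.843 of the females' whole range on the log2 scale. Males 3, 6, 7 and 8 had signals of 495.4, 517.9, 806.4 and 515.5 on the same probeset. In all, 50 groups (25 probesets in both sexes) were looked at for such gaps and 1 was found. That is a lower share than the 1 group in 20 or so that chance gives. The count takes no account of the size of a gap, so it does not show whether this gap arose by chance. Males 3, 6, 7 and 8 lay near each other, so a search for single values far from the rest could not find them.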

How the results depend on the processing

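NDUFS4, COX7C and ATP5I were called male-higher in each of the 10 alternatives fitted with limma, by the SAM-type test and in all 18 fits without 1 embryo, and NDUFAF2 in none of them. Over the 10 limma alternatives the log2 differences ranged from 0.97 to 1.09 for NDUFS4, 0.65 to 0.67 for COX7C and 0.61 to 0.62 for ATP5I. ATP5F1AZ (0.23 to 0.27) was called by the SAM-type test and in 7 of these 10, and lost its limma call with no filter (adjusted p = 0.354), with the replicate block (0.156) and without female 9 and males 5, 6 and 8, which lay apart on the first principal component (0.167). The count of male-higher members was 3 in these 3 settings and 4 in the others, and that of female-higher members was 0 throughout. The cause was not tested. With the replicate block 324 probesets were male-higher and 32 female-higher over the array; deviations of same-numbered embryos correlated between -0.247 and 0.208, so the numbers do not pair them.

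Over all probesets (357 male-higher and 38 female-higher), 221 and 18 were called with 1 probeset for each gene, which tests fewer probesets, and the SAM-type test gave 405 and 24. Without each embryo in turn the counts were 332 to 359 male-higher and 31 to 45 female-higher, those of members 3 to 4 and 0, the Z-linked median 0.62 to 0.67 and the autosomal median -0.01 to 0.02. The sign of the difference changed in 46 instances for 10 named probesets that were never called, whose differences with all embryos were at most 0.045 in size; the furthest change was in the third NDUFS1 probeset, from 0.02 to -0.36 (adjusted p = 0.733) without the 4 embryos. Members below the detection level (47 of 155) are not described by these values.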
